A study of Mus musculus with 8 samples.

Results

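A set of 10 genes of the WNT pathway was followed in mouse embryonic stem cells (mESCs) that carry or lack the nuclear transporter IPO13, with and without oxidative stress. They were found by their symbols among the 23420 gene rows counted in each library, and all 10 were present and tested: Lef1, Tcf7, Tcf7l1, Tcf7l2, Ctnnb1, Axin2, Nkd1, Sp5, Notum and Cdx1. The data comprise 8 RNA-seq libraries in 4 groups of 2. The groups are untreated IPO13+/+ (wild-type) cells, IPO13+/+ cells given 125 µM H2O2 over 1 h with a further 2 h of recovery, untreated IPO13-/- cells, and IPO13-/- cells given the same exposure. All cells came from blastocysts of a 129 x C57BL/6 background and grew without feeder cells in medium with serum and LIF, the cytokine that holds mESCs in the pluripotent state. The number of independent clones behind each genotype is not given in the sources used here, so a difference between the genotypes cannot be told apart from a difference between lines. Nothing states that the libraries of a group came from separate cultures, and p-values then measure the spread between these libraries, which may be technical.

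In the WNT pathway, secreted ligands bind Frizzled and LRP receptors and stop a destruction complex that otherwise marks beta-catenin for degradation. Beta-catenin then enters the nucleus and binds the LEF/TCF proteins, which sit on DNA as repressors without it and turn on target genes with it. Among those targets are feedback genes such as Axin2 that dampen the signal, and in mESCs the pathway is known for favouring self-renewal by relieving the repression that TCF7L1 places on pluripotency genes.

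The libraries held between 60397877 and 73789079 reads counted on genes, so that 3 reads, taken as the smallest signal told from 0, correspond to 0.0407 to 0.0497 CPM, a count scaled to the library total. Levels are given as CPM after TMM normalization, which corrects those totals for composition. Ipo13 itself, the check of the genotype labels, stood at 69.3 ± 1.39 CPM (SD, n = 2) in untreated and 70.9 ± 2.20 CPM in treated IPO13+/+ cells, and at 25.5 ± 0.636 and 25.4 ± 0.753 CPM in IPO13-/- cells, in the direction of the labels and not at 0. All 12 pluripotency markers were detected at 1 CPM or more, with summed levels of 7993 to 8204 CPM in untreated IPO13+/+ and 6830 to 6943 CPM in untreated IPO13-/- libraries, and 2 of 9 fibroblast markers reached 1 CPM. Differences were tested with edgeR's quasi-likelihood test, and FDR is its p-value adjusted by Benjamini-Hochberg over the 19424 genes tested. Genes with an FDR under 0.05 were called, and 2-fold calls were counted separately. Shares of all genes are over these 19424, of which 12198 averaged at least 1 CPM. They thus include genes with too few reads to be readily called, and shares among genes of similar level were not computed. These are bulk libraries, in which fewer cells expressing a gene and less RNA per cell cannot be told apart.

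Lef1 was the member with the widest range: it was higher in IPO13-/- than in IPO13+/+ cells and lower after H2O2 in both genotypes. Axin2 moved in the same directions by smaller steps, while Cdx1 was lower in IPO13-/- cells and lower again after H2O2. In untreated cells 7 of the 10 members were called between the genotypes, 4 higher and 3 lower in IPO13-/- cells, where 38.2% of all genes tested were called, 18.7% higher and 19.4% lower. After H2O2, 7 members were called between the genotypes, again 4 higher and 3 lower, against 36.6% of all genes, 19.1% higher and 17.5% lower. H2O2 lowered 5 members in IPO13+/+ cells and raised none (also 0 at an unadjusted p below 0.05 and with DESeq2 or limma-voom), where 13.8% of all genes were called lower and 25.3% in either direction. In IPO13-/- cells it lowered 5 and raised 1, where 14.4% and 14.9% of all genes were called, 29.4% in all. No member passed edgeR's interaction test of whether the H2O2 response differed between the genotypes, in which 2.71% of all genes were called. In 2.01% the log2 response was more positive in IPO13-/- cells and in 0.705% more negative. In that test 0 of the 10 members had an unadjusted p below 0.05, and DESeq2 and limma-voom called 0.

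**Figure D1:**
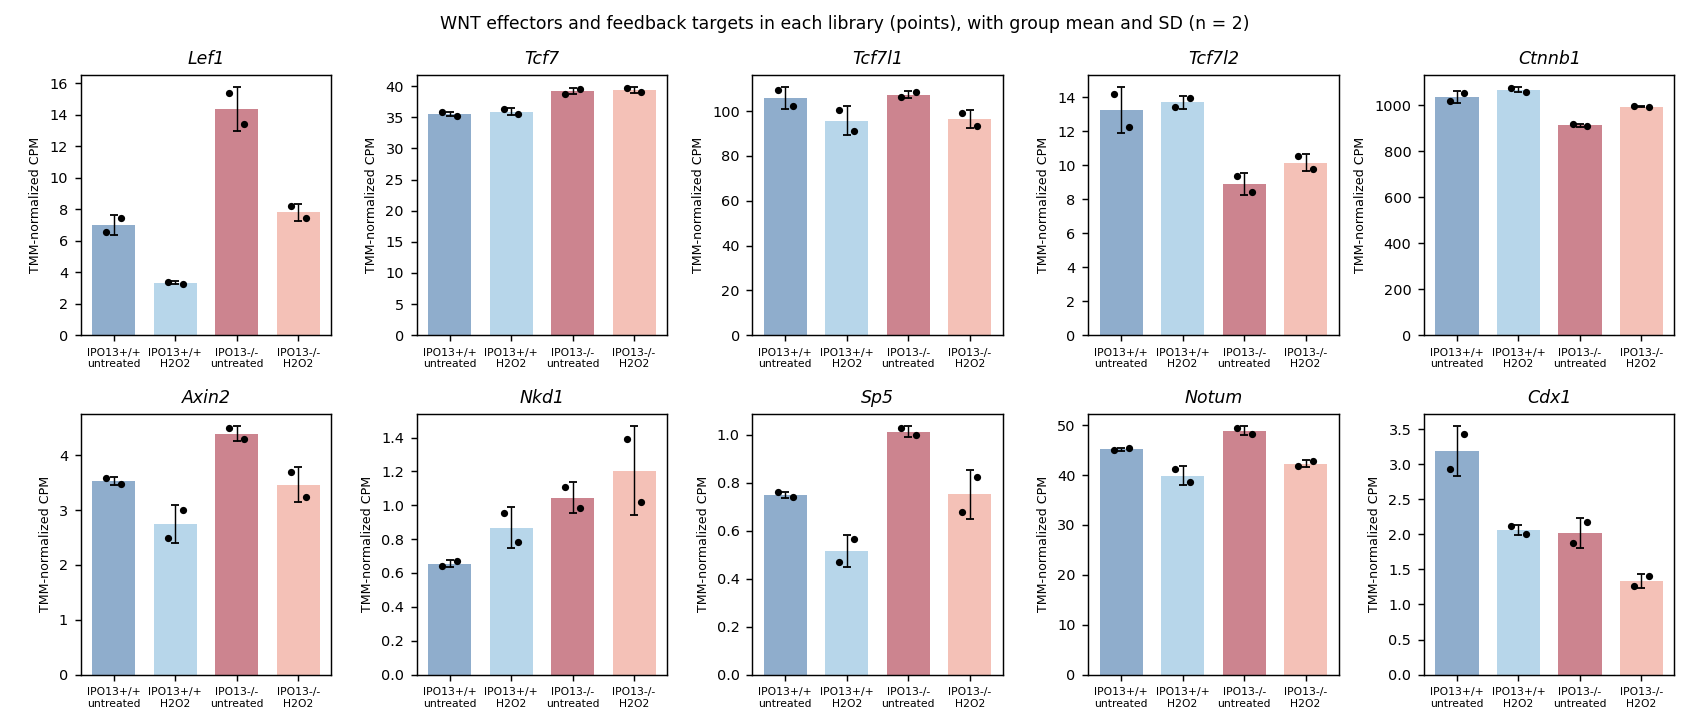
TMM-normalized CPM (vertical axes, each from 0) of the 10 members in the 4 groups, with each library as a point, group means as bars and SD as error bars (n = 2). Lef1 stands lowest in treated IPO13+/+ cells (3.28 and 3.40 CPM) and highest in untreated IPO13-/- cells (13.4 and 15.4 CPM).

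Lef1 (ENSMUSG00000027985, chr3:131110471-131224356, + strand, GRCm38) encodes a DNA-binding partner of beta-catenin and is also a target of the pathway. It was measured at 6.54 and 7.44 CPM in the untreated IPO13+/+ libraries, from 439 and 521 reads, and at 3.40 and 3.28 CPM in the treated ones, from 231 and 227 reads. In IPO13-/- cells it was measured at 15.4 and 13.4 CPM without treatment, from 1163 and 831 reads, and at 8.20 and 7.42 CPM after H2O2, from 531 and 459 reads. Untreated IPO13-/- libraries were thus above all others, treated IPO13+/+ libraries below all others, and treated IPO13-/- and untreated IPO13+/+ libraries overlapped. Lef1 was 2.06-fold higher in untreated IPO13-/- than in untreated IPO13+/+ cells (log2 fold change 1.04, SE 0.08, edgeR FDR = 2.3e-11) and 2.34-fold higher after H2O2 (1.23, SE 0.10, edgeR FDR = 7.6e-11). The response to H2O2 was -1.07 (SE 0.10, edgeR FDR = 1.8e-09) in IPO13+/+ and -0.88 (SE 0.08, edgeR FDR = 6.9e-10) in IPO13-/- cells on the log2 scale, and the difference between the responses, 0.18 (SE 0.13, edgeR FDR = 0.55), was not called. Treated IPO13-/- and untreated IPO13+/+ cells, neighbours in the order of levels compared after the values were seen, did not pass the test (0.16, SE 0.09, edgeR FDR = 0.14).

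Lef1 was the single member past 2-fold: between the genotypes in untreated cells (4.71% of all genes), between the genotypes after H2O2 (4.56%) and after H2O2 in IPO13+/+ cells (2.9% of all genes, and 0.149% in the lower direction). No member reached 2-fold after H2O2 in IPO13-/- cells, where 2.89% of all genes did. The untreated genotype difference was 0.96 on the log2 scale without untreated IPO13-/- library 1 and without untreated IPO13+/+ library 1, and the IPO13+/+ response was -0.97 without untreated IPO13+/+ library 2, each just under 2-fold and still past the FDR threshold. Markers of primed epiblast and mesoderm, 4 of 9 at 1 CPM or more, were also summed. Their sum was lower after H2O2 and higher in IPO13-/- cells of the same treatment, as Lef1 was, but without overlap of the middle groups. It was 326.5 to 334.7 CPM in untreated and 273.2 to 280.5 CPM in treated IPO13+/+ libraries. In IPO13-/- libraries it was 353.5 to 362.3 and 292.8 to 302.1 CPM. Most of that sum is Dnmt3b, a DNA methyltransferase, at 241.4 to 323.3 CPM, while the mesoderm gene T lay between 0.143 and 0.673 CPM and Mesp1 was at 0 in at least 1 library. Single markers did not all follow the sum. Between the genotypes, 2 were called higher and 1 lower without H2O2, and 3 higher and 2 lower with it. Of all genes 18.7% and 19.4%, and then 19.1% and 17.5%, were. Eomes was lower in IPO13-/- cells without (-0.42, edgeR FDR = 1.7e-05) and with H2O2 (-0.55, edgeR FDR = 1.8e-06). Fgf5 rose after H2O2 in IPO13-/- cells (1.08, edgeR FDR = 3e-05). The part of these markers in the Lef1 result was not tested.

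The other LEF/TCF genes moved less and not together. Tcf7 (chr11:52252371-52283014, - strand), whose product is the close relative TCF1, was measured at 35.8 and 35.3 CPM in untreated and 36.3 and 35.5 CPM in treated IPO13+/+ cells, and at 38.8 and 39.5 and then 39.7 and 39.0 CPM in IPO13-/- cells. All 4 IPO13-/- libraries stood above all 4 IPO13+/+ libraries, and treated and untreated libraries overlapped. The genotype difference was 0.14 (SE 0.05, edgeR FDR = 0.019) without and 0.13 (SE 0.05, edgeR FDR = 0.027) with H2O2 on the log2 scale. These small calls were lost in DESeq2 (FDR = 0.064 and 0.13), the first also without library 2 of either untreated group (edgeR FDR = 0.087 for IPO13-/- and 0.059 for IPO13+/+) and the second without any 1 of the 4 treated libraries (edgeR FDR between 0.067 and 0.20) and with relative log expression factors (0.054).

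Tcf7l1 (chr6:72626378-72789254, - strand) encodes the LEF/TCF protein that acts mainly as a repressor in mESCs. Its levels were 109 and 102 CPM in untreated and 100.3 and 91.2 CPM in treated IPO13+/+ cells, and 106 and 109 and then 99.2 and 93.6 CPM in IPO13-/- cells. Treated libraries were below untreated ones in each genotype, and the genotypes overlapped with and without H2O2. The genotype differences were 0.02 and 0.01 (SE 0.05 each, edgeR FDR = 0.79 and 0.92). The change after H2O2 was -0.14 (SE 0.05, edgeR FDR = 0.028) in IPO13+/+ and -0.16 (SE 0.05, edgeR FDR = 0.016) in IPO13-/- cells on the log2 scale, but the first call was lost in 11 of 16 alternatives, among them without treated IPO13+/+ library 2 (edgeR FDR = 0.47), and the second without untreated IPO13-/- library 1 (0.12), untreated IPO13-/- library 2 (0.25) or treated IPO13-/- library 2 (0.29). A gene model on the opposite strand, Gm15401, overlaps Tcf7l1, and the strand setting of the counting is not given in the sources used here.

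Tcf7l2 (chr19:55741820-55933654, + strand), which encodes TCF4 and acts more often as an activator, ran opposite to Lef1 between the genotypes. It was measured at 14.2 and 12.3 CPM in untreated and 13.4 and 14.0 CPM in treated IPO13+/+ cells, and at 9.39 and 8.46 and then 10.5 and 9.81 CPM in IPO13-/- cells. Every IPO13-/- library was below every IPO13+/+ library. The difference was -0.57 (SE 0.07, edgeR FDR = 6.5e-07) without and -0.43 (SE 0.07, edgeR FDR = 3.3e-05) with H2O2 on the log2 scale, and both were called in all 16 alternatives. H2O2 gave 0.05 (SE 0.07, edgeR FDR = 0.69) in IPO13+/+ and 0.19 (SE 0.08, edgeR FDR = 0.077) in IPO13-/- cells. The latter passed with a replicate block (edgeR FDR = 0.029) and when the 4 libraries compared were fitted alone (0.033), and without either untreated IPO13+/+ library (0.037).

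Ctnnb1 (chr9:120929216-120960507, + strand), the gene of beta-catenin, was the most abundant member, with 1019 and 1054 CPM in untreated and 1076 and 1059 CPM in treated IPO13+/+ cells, and 918 and 908 and then 995 and 994 CPM in IPO13-/- cells. All IPO13-/- libraries were below all IPO13+/+ libraries. The difference was -0.18 (SE 0.03, edgeR FDR = 1.1e-04) without and -0.10 (SE 0.03, edgeR FDR = 0.021) with H2O2, the latter lost when any 1 of the 4 treated libraries was left out (edgeR FDR between 0.076 and 0.17). H2O2 raised Ctnnb1 by 0.12 (SE 0.03, edgeR FDR = 0.0082) in IPO13-/- cells, a call lost without untreated IPO13-/- library 1 (0.051) and with unscaled library totals (0.051), and gave 0.04 (SE 0.03, edgeR FDR = 0.44) in IPO13+/+ cells. The gene models 4930593C16Rik and Ulk4 overlap it on the other strand.

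Axin2 (ENSMUSG00000000142, chr11:108920349-108950783, + strand) encodes a scaffold of the destruction complex and is the most widely used feedback target of the pathway. It was measured at 3.58 and 3.48 CPM in untreated IPO13+/+ cells, from 240 and 244 reads, and at 2.50 and 2.99 CPM after H2O2, from 170 and 207 reads. In IPO13-/- cells it stood at 4.49 and 4.30 CPM, from 340 and 267 reads, and after H2O2 at 3.69 and 3.23 CPM, from 239 and 200 reads. As for Lef1, untreated IPO13-/- libraries were highest, treated IPO13+/+ libraries lowest, and the remaining groups overlapped (-0.03, SE 0.10, edgeR FDR = 0.89). Axin2 was 1.25-fold higher in untreated IPO13-/- cells (log2 fold change 0.32, SE 0.10, edgeR FDR = 0.011) and 1.26-fold higher after H2O2 (0.33, SE 0.11, edgeR FDR = 0.016). H2O2 gave -0.36 (SE 0.11, edgeR FDR = 0.013) in IPO13+/+ and -0.34 (SE 0.10, edgeR FDR = 0.0095) in IPO13-/- cells.

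None of the 4 Axin2 differences was called by DESeq2, with FDR = 0.12 and 0.14 between the genotypes and 0.13 and 0.10 after H2O2, against a range of up to 0.26 over all alternatives. The untreated genotype call was lost without untreated IPO13-/- library 1 (edgeR FDR = 0.098), and the treated one without treated IPO13-/- library 1 (0.22) or treated IPO13+/+ library 1 (0.26). The IPO13+/+ response was lost without treated IPO13+/+ library 1 (edgeR FDR = 0.25) or either untreated IPO13-/- library (0.051 each), and when the 4 libraries compared were fitted alone (0.077). The IPO13-/- response was lost without untreated library 1 (0.14), untreated library 2 (0.059) or treated library 2 (0.18).

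Nkd1 (chr8:88521354-88594884, + strand), which encodes a Dishevelled-binding feedback inhibitor, was counted 43 and 47 times in untreated and 65 and 54 times in treated IPO13+/+ libraries, and 84 and 61 and then 90 and 63 times in IPO13-/- libraries. On the CPM scale these are 0.641 and 0.671, 0.955 and 0.781, 1.11 and 0.983, and 1.39 and 1.02. IPO13-/- libraries were above IPO13+/+ libraries of the same treatment, and, unlike Lef1 and Axin2, treated group means were not below untreated ones, although libraries of the IPO13-/- groups overlapped. Nkd1 was higher in untreated IPO13-/- cells by 0.68 (SE 0.20, edgeR FDR = 0.0067) and after H2O2 by 0.48 (SE 0.18, edgeR FDR = 0.041) on the log2 scale. The first call was lost in DESeq2 (FDR = 0.085) and without untreated IPO13-/- library 1 (edgeR FDR = 0.11), and the second in 8 of 16 alternatives, without treated IPO13-/- library 1 (0.50), treated IPO13+/+ library 2 (0.30) and either untreated IPO13-/- library (0.07 each) among them. H2O2 gave 0.40 (SE 0.20, edgeR FDR = 0.17) in IPO13+/+ and 0.20 (SE 0.17, edgeR FDR = 0.46) in IPO13-/- cells.

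Sp5 (chr2:70474923-70477729, + strand), a zinc-finger transcription factor and direct WNT target, gave 51 and 52 reads in untreated and 32 and 39 in treated IPO13+/+ libraries, and 78 and 62 and then 44 and 51 in IPO13-/- libraries. In CPM this is 0.760 and 0.742, 0.470 and 0.564, 1.03 and 0.999, and 0.680 and 0.824, so the libraries followed the order seen for Lef1 and Axin2 with wider counting error. None of its differences passed edgeR's test: 0.43 (SE 0.18, edgeR FDR = 0.058) and 0.53 (SE 0.21, edgeR FDR = 0.051) between the genotypes, and -0.54 (SE 0.21, edgeR FDR = 0.063) and -0.44 (SE 0.18, edgeR FDR = 0.078) after H2O2. The genotype differences did pass with filterByExpr (edgeR FDR = 0.047 and 0.048) and with unscaled library totals (0.024 and 0.047). Sp5 lies on chromosome 2, where the median of 914 genes was 0.27 without and 0.30 with H2O2 in IPO13-/- against IPO13+/+ cells, while the median of all other genes was -0.04 and -0.01. Of 19 genes within 1 Mb of Sp5, 14 were called higher in untreated IPO13-/- cells. The part of this shift in the Sp5 values was not tested. Chromosomes are reported here for the members only, and any other named gene on chromosome 2 carries the same limit.

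Notum (chr11:120653788-120661175, - strand) encodes a secreted enzyme that strips the lipid from WNT ligands. It was measured at 45.0 and 45.4 CPM in untreated and 41.2 and 38.5 CPM in treated IPO13+/+ cells, and at 49.5 and 48.3 and then 41.8 and 42.8 CPM in IPO13-/- cells. Treated libraries were below all untreated ones. The change after H2O2 was -0.18 (SE 0.05, edgeR FDR = 0.0055) in IPO13+/+ and -0.21 (SE 0.05, edgeR FDR = 0.0012) in IPO13-/- cells on the log2 scale, the former lost without treated IPO13+/+ library 2 (edgeR FDR = 0.16) and when the 4 libraries compared were fitted alone (0.072). The genotype differences were 0.12 (SE 0.05, edgeR FDR = 0.056) and 0.09 (SE 0.05, edgeR FDR = 0.18). The first passed with the replicate block (edgeR FDR = 0.028), filterByExpr (0.023) and unscaled library totals (0.0014), and without either treated IPO13-/- library (0.039).

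Cdx1, a homeobox gene of the posterior embryo on chromosome 18 and a target of WNT and retinoic acid signalling, was counted 197 and 241 times in untreated and 144 and 139 times in treated IPO13+/+ libraries, and 142 and 135 and then 82 and 87 times in IPO13-/- libraries. Its levels were 2.94 and 3.44, 2.12 and 2.01, 1.88 and 2.17, and 1.27 and 1.41 CPM. Untreated IPO13+/+ libraries were highest and treated IPO13-/- libraries lowest, and treated IPO13+/+ and untreated IPO13-/- libraries overlapped. Cdx1 was lower in IPO13-/- cells, with a log2 difference of -0.67 (SE 0.12, edgeR FDR = 3.9e-05) without and -0.63 (SE 0.14, edgeR FDR = 7.5e-04) with H2O2. H2O2 gave -0.63 (SE 0.12, edgeR FDR = 1.5e-04) in IPO13+/+ and -0.59 (SE 0.14, edgeR FDR = 0.0019) in IPO13-/- cells, the latter lost without untreated IPO13-/- library 2 (edgeR FDR = 0.063). The interaction was 0.04 (SE 0.19, edgeR FDR = 1.0).

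**Figure D2:**
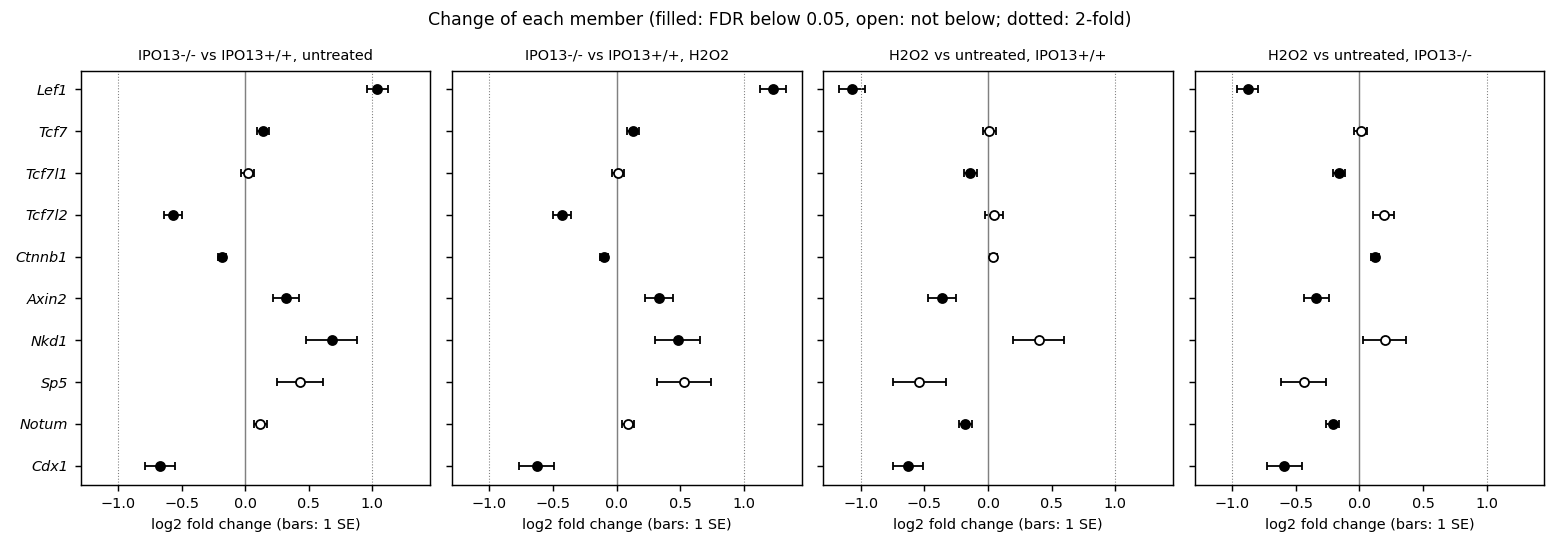
Log2 fold changes (horizontal axes) of the 10 members in the 4 comparisons with 1 SE as bars, filled where the edgeR FDR is below 0.05 and open where not, with dotted lines at 2-fold. Lef1 lies right of 0 in both genotype comparisons (1.04 and 1.23) and left of 0 in both H2O2 comparisons (-1.07 and -0.88), and Cdx1 lies left of 0 in all 4.

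Read across the pairs of comparisons that share no library, 5 members were called lower after H2O2 in both genotypes, namely Lef1, Tcf7l1, Axin2, Notum and Cdx1, where 8.46% of all genes were. Lef1, Tcf7, Axin2 and Nkd1 were higher in IPO13-/- cells with and without H2O2 (13.9% of all genes), and Tcf7l2, Ctnnb1 and Cdx1 were lower (12.5%). The feedback and other target genes did not all share 1 direction between the genotypes. Axin2 and Nkd1 were called higher and Cdx1 lower in IPO13-/- cells. Notum (edgeR FDR = 0.056 and 0.18) and Sp5 (0.058 and 0.051) were not called. Their IPO13-/- libraries nevertheless stood above the IPO13+/+ libraries of the same treatment.

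Between genes, levels can be compared only per length. In untreated IPO13+/+ cells, in CPM per kb of mean transcript length, Ctnnb1 stood at 722 and Tcf7l1, at 79.9, was the most abundant LEF/TCF gene. Notum followed at 28.3, Tcf7 at 16.9, Tcf7l2 at 6.38, Lef1 at 2.87, Axin2 at 2.08, Cdx1 at 1.82, Sp5 at 0.358 and Nkd1 at 0.229. With the longest transcript as the length, Axin2 fell below Cdx1 (0.829 against 1.82) and Lef1 stood at 1.91, so the order of these 3 genes depends on the transcript assumed. Lef1 was thus the lowest of the 4 LEF/TCF genes by level in untreated IPO13+/+ cells. In untreated IPO13-/- cells it reached 5.89 CPM per kb, above Tcf7l2 at 4.29 and below Tcf7 at 18.6 and Tcf7l1 at 81.0.

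The genes whose levels ran most like Lef1 over the 8 libraries, by Pearson correlation of log2 CPM among 12198 genes of at least 1 CPM, were B3gnt5 (0.994), Oip5 (0.994) and Sephs1 (0.993). For Axin2 they were Pik3c2a (0.982), Ptbp3 (0.981) and Tnip2 (0.981). The 8 points fall into 4 groups of 2 libraries, so these values describe a shared order of the groups and carry no test.

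Promoter sequences were read to see what the 3 genes with the shared order, Lef1, Axin2 and Sp5, have in common before their starts. RefSeq windows on GRCm38.p6, from 250 bases before to 50 after a start, were read for 8 of the members, all but Notum and Cdx1. Below, the 250 bases before the first listed start are given 5' to 3' on the + strand, with capitals for the LEF/TCF core motif (CTTTG and then any pair of the letters A and T, on either strand). They come from chr2:70474673-70474922 for Sp5, chr11:108920099-108920348 for Axin2 and chr3:131110047-131110296 for Lef1.
Sp5: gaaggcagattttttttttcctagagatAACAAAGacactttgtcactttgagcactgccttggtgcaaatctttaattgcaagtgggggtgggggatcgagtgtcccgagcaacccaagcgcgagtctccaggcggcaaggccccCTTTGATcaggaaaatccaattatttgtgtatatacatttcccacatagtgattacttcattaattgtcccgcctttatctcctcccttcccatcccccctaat
Axin2: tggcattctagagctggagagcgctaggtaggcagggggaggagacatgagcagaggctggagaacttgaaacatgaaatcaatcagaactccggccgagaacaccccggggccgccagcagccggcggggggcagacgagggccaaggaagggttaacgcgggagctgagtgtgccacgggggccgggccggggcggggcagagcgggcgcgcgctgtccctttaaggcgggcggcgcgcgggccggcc
Lef1: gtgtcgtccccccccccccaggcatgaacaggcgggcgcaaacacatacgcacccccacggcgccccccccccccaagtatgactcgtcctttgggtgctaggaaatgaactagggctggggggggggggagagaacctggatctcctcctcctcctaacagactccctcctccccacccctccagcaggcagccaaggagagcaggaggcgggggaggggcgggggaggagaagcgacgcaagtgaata
Sp5 holds 2 core motifs, at bases 29 and 147 of the printed run, and neither the Axin2 window nor the first Lef1 window holds one. Another Lef1 window, at chr3:131156044-131156343, and a Tcf7l2 window, at chr19:55895071-55895370, hold 1 each. That makes 3 of the 14 windows read (21.4%), against 16.9% of 32851 windows of all genes, and by gene 3 of 8 against 18.9% of 27025. A gene was counted if any of its windows held a motif. The 8 members had 14 windows and the 27025 genes 32851, so shares by gene are not matched for the number of windows. With a shorter motif, CTTTG and then a single A or T, 28.6% of the 14 windows held one, against 31.2% of all windows. By gene, 4 of 8 (50%) held the shorter motif, against 34.5% of all genes. The letters describe these windows alone and say nothing about binding elsewhere.

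Upstream of the members, 8 of 23 ligand genes were called higher after H2O2 in both genotypes, and most of the 23 were not. Of 23 genes of WNT and R-spondin ligands, 10 were called higher and none lower in IPO13+/+ cells, 9 of them past 2-fold, where 11.5% of all genes were called higher and 2.75% past 2-fold. In IPO13-/- cells 9 were called higher and none lower, 7 past 2-fold, where 14.9% and 2.52% of all genes were. The 8 called higher in both genotypes, where 8.46% of all genes were, are Wnt3, Wnt3a, Wnt4, Wnt6, Wnt7b, Wnt8b, Wnt9a and Wnt10a. With DESeq2 the counts were 8 and 7. Of ligands with a lower value, 0 and 2 had an unadjusted p below 0.05 in edgeR's test, DESeq2 called 0 and 0, and limma-voom called 0 and 1. Over the 23 ligands the median was 0.67 and 0.42 on the log2 scale, against 0.00 over all genes tested, and without Wnt1 and Wnt2, which had a group at 0 reads, it was 0.67 and 0.45. Between the untreated genotypes, 4 ligands were higher in IPO13-/- cells (Wnt3a, Wnt10b, Rspo1 and Rspo4) and 5 lower (Wnt5a, Wnt6, Wnt7b, Wnt10a and Rspo3), shares of 17.4% and 21.7% beside 18.7% and 19.4% of all genes. Rspo3 rests on few reads, 11 and 4 in untreated IPO13+/+ and 2 and 0 in untreated IPO13-/- libraries (-2.77, SE 0.98, edgeR FDR = 0.027). Of the 23 ligands, 8 averaged at least 1 CPM. The examples that follow, apart from Wnt10a, Wnt8b, Wnt10b and Rspo4, were chosen after their values were seen.

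Wnt3, a ligand needed for the primitive streak, was counted 15 and 20 times in untreated and 151 and 169 times in treated IPO13+/+ libraries, and 17 and 19 and then 127 and 166 times in IPO13-/- libraries. The rise was 3.18 (SE 0.21, edgeR FDR = 3.4e-12) and 3.14 (SE 0.21, edgeR FDR = 4.6e-12) on the log2 scale, with no overlap between treated and untreated libraries. Wnt9a went from 29 and 41 to 189 and 166 reads in IPO13+/+ and from 40 and 33 to 155 and 131 reads in IPO13-/- cells, a change of 2.34 (SE 0.16, edgeR FDR = 9.1e-12) and 2.09 (SE 0.17, edgeR FDR = 1.5e-10). Wnt4 rose by 1.27 (SE 0.14) and 1.25 (SE 0.15) and Wnt6 by 1.00 (SE 0.09) and 1.05 (SE 0.10), the highest edgeR FDR of these being 1.7e-07. Wnt8b had 1 read in each untreated IPO13+/+ library and 3 and 2 reads in the untreated IPO13-/- libraries, and 20 and 35 and then 15 and 20 reads after H2O2. Wnt7b, the most abundant of the 8, moved least, from 18.7 and 20.2 to 25.0 and 23.3 CPM in IPO13+/+ (0.31, SE 0.06, edgeR FDR = 2.4e-04) and from 14.3 and 13.3 to 18.7 and 19.9 CPM in IPO13-/- cells (0.48, SE 0.06, edgeR FDR = 1.1e-06).

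Wnt3a, the ligand most used to activate beta-catenin in culture, was higher both in IPO13-/- cells and after H2O2. It was counted 29 and 27 times in untreated and 54 and 62 times in treated IPO13+/+ libraries, and 65 and 50 and then 86 and 83 times in IPO13-/- libraries. Its genotype difference was 1.03 (SE 0.21, edgeR FDR = 2.8e-04) without and 0.66 (SE 0.16, edgeR FDR = 0.0021) with H2O2, and its H2O2 response 1.05 (SE 0.21, edgeR FDR = 4.1e-04) and 0.68 (SE 0.16, edgeR FDR = 0.0022). DESeq2 did not call the treated genotype difference (FDR = 0.087) or the IPO13-/- response (0.084).

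Wnt10a was lower in IPO13-/- cells and was the one ligand called in the interaction test, which does not show that the other ligands responded alike. It was measured at 1.03 and 1.16 CPM in untreated and 2.76 and 3.14 CPM in treated IPO13+/+ cells, and at 0.317 and 0.354 and then 1.65 and 1.92 CPM in IPO13-/- cells. The rise was 1.43 (SE 0.13, edgeR FDR = 2.3e-09) in IPO13+/+ and 2.41 (SE 0.19, edgeR FDR = 1.3e-10) in IPO13-/- cells, a difference of 0.98 (SE 0.25, edgeR FDR = 0.033) that was lost in 9 of 15 alternatives. Rspo4, an R-spondin that stabilizes the receptors, was counted 8 and 7 times in untreated IPO13+/+ and 35 and 38 times in untreated IPO13-/- libraries (2.26, SE 0.35, edgeR FDR = 7.7e-06), and Wnt5a, a ligand known mainly for signalling without beta-catenin, was lower in the same comparison (-0.93, SE 0.12, edgeR FDR = 5.8e-07). Wnt10b, at 5 and 7 against 23 and 9 reads, was called (1.39, SE 0.52, edgeR FDR = 0.036) but not by DESeq2 (0.17) or limma-voom (0.062), nor without untreated IPO13-/- library 1 (0.50), untreated IPO13+/+ library 1 (0.14) or untreated IPO13+/+ library 2 (0.062).

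**Figure D3:**
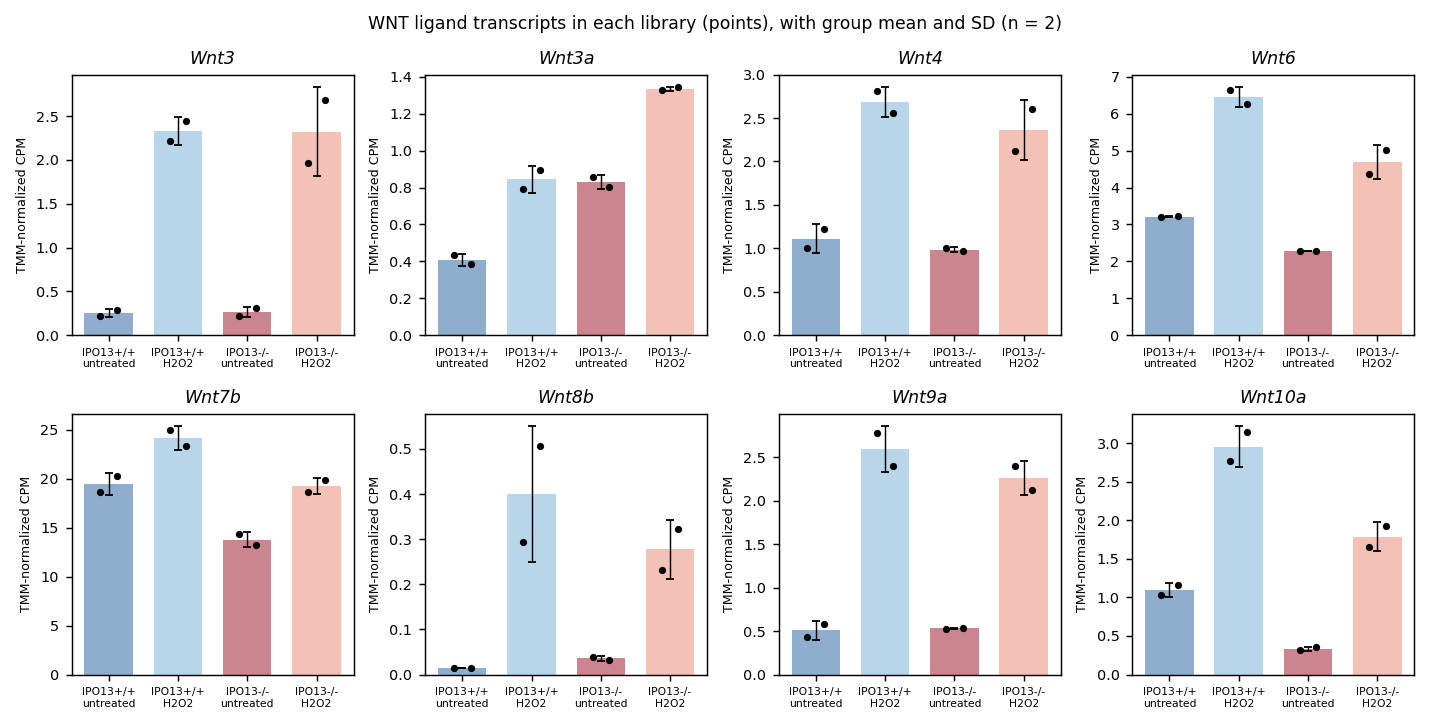
TMM-normalized CPM (vertical axes, each from 0) of the 8 WNT ligands called higher after H2O2 in both genotypes, with each library as a point, group means as bars and SD as error bars (n = 2). Wnt3 lies between 0.224 and 0.306 CPM in the 4 untreated and between 1.96 and 2.68 CPM in the 4 treated libraries.

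The remaining parts of the pathway showed calls in both directions. Among 19 receptors and co-receptors, 3 were higher and 5 lower in untreated IPO13-/- cells and 5 higher and 6 lower after H2O2 in IPO13+/+ cells, with medians of -0.03 and -0.10 on the log2 scale against 0.00 over all genes tested. Of all genes 18.7% and 19.4% were called in the former comparison and 11.5% and 13.8% in the latter. Those higher in IPO13-/- cells were Fzd3, Ror1 and Ryk, and those lower were Fzd7, Fzd8, Fzd10, Lrp5 and Lgr6. Ror1, a co-receptor for WNT5A, was measured at 0.909 and 0.614 CPM in untreated IPO13+/+ and 1.24 and 1.56 CPM in untreated IPO13-/- cells, and was called higher without (0.87, SE 0.18, edgeR FDR = 3.9e-04) and with H2O2 (1.24, SE 0.21, edgeR FDR = 2.9e-05). Fzd2, a Frizzled receptor, was lower after H2O2, at -1.08 (SE 0.14, edgeR FDR = 8.6e-07) in IPO13-/- cells and -0.52 (SE 0.13, edgeR FDR = 0.0043) in IPO13+/+ cells on the log2 scale, the latter not called by DESeq2 (0.086) nor without untreated IPO13+/+ library 2 (0.071). Lgr5, an R-spondin receptor, had 2 to 4 reads in untreated and 9 to 13 in treated libraries, and its calls (edgeR FDR = 0.041 and 0.045) were lost whenever 1 of the libraries compared was left out, at an FDR between 0.077 and 0.23.

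Of 5 genes needed for ligand secretion, 3 were higher (Porcn, Wls and Tmed5) and 1 lower (Vps35) in untreated IPO13-/- cells, where 18.7% and 19.4% of all genes were called. After H2O2, Porcn and Tmed2 were lower in both genotypes, where 8.46% of all genes were. The Tmed2 call in IPO13-/- cells (-0.13, SE 0.04, edgeR FDR = 0.030) was lost in 7 of 16 alternatives, DESeq2 among them. Wls (0.30, SE 0.10, edgeR FDR = 0.019) and Vps35 (0.12, SE 0.04, edgeR FDR = 0.017) were higher in IPO13-/- cells, where 14.9% of all genes were. These last calls were lost in 5 of 16 alternatives each. Vps35, a retromer subunit, differed by -0.20 (SE 0.04, edgeR FDR = 7.1e-05) between the untreated genotypes. Porcn, the enzyme that attaches the lipid needed for secretion, was named after its values were seen. It stood at 53.0 and 53.3 CPM in untreated and 47.2 and 44.8 CPM in treated IPO13+/+ cells, and at 81.5 and 73.9 and then 60.0 and 62.6 CPM in IPO13-/- cells. Its genotype difference was 0.55 (SE 0.05, edgeR FDR = 8.6e-10) without and 0.42 (SE 0.05, edgeR FDR = 1.7e-07) with H2O2, and its H2O2 response -0.21 (SE 0.05, edgeR FDR = 0.0025, and 0.082 without treated IPO13+/+ library 2) and -0.34 (SE 0.05, edgeR FDR = 3.7e-06).

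Of 19 secreted or membrane-bound inhibitors measured, none was higher and 6 were lower in untreated IPO13-/- cells, against 18.7% and 19.4% of all genes. Among them was Shisa2, which holds Frizzled in the endoplasmic reticulum, at 6.50 and 6.64 CPM against 12.1 and 11.6 CPM (-0.85, SE 0.07, edgeR FDR = 3.8e-10). At an unadjusted p below 0.05, 1 was higher, and DESeq2 and limma-voom called 0 higher. The number lower was 3 without untreated IPO13-/- library 1, 1 inhibitor was higher without untreated IPO13+/+ library 2, and 2 were higher with unscaled library totals.

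Of 21 genes of the destruction complex and its regulators, 6 were called lower and none higher in untreated IPO13-/- cells, where 19.4% and 18.7% of all genes were called. Those lower were Apc, Csnk1a1, Csnk1d, Amer1, Tnks2 and Ppp2ca, with changes from -0.34 to -0.11 on the log2 scale, the call of Csnk1d being lost in 12 of 16 alternatives. At an unadjusted p below 0.05, 2 were higher, and DESeq2 and limma-voom called 0 higher. With unscaled library totals 3 were lower and 4 higher, so the split of this list depends on the scaling, and 10 were lower without untreated IPO13+/+ library 2. None of the list reached 2-fold in any of the 4 comparisons. Both E3 ligases that remove Frizzled receptors, Znrf3 and Rnf43, were measured: Znrf3 was called higher in untreated IPO13-/- cells (0.18, SE 0.07, edgeR FDR = 0.040), a call lost in 6 of 16 alternatives. Rnf43 was called higher after H2O2 in both genotypes (edgeR FDR = 0.035 and 0.041), calls lost in 7 and 5 of 16 alternatives, DESeq2 and limma-voom among them.

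Dact2 and Dvl2, which act at the Dishevelled step, responded to H2O2 more in IPO13-/- cells. Dact2, a Dishevelled-binding modulator, was measured at 75.5 and 75.2 CPM in untreated and 96.6 and 91.0 CPM in treated IPO13+/+ cells, and at 52.2 and 53.1 and then 107 and 104 CPM in IPO13-/- cells. The response was 0.32 (SE 0.04, edgeR FDR = 2.8e-06) and 1.01 (SE 0.04, edgeR FDR = 4.9e-16), a difference of 0.69 (SE 0.06, edgeR FDR = 8.1e-08) that was called in all 15 alternatives. For Dvl2, a Dishevelled gene, the response was 0.10 (SE 0.04, edgeR FDR = 0.078) and 0.39 (SE 0.04, edgeR FDR = 3.2e-08), a difference of 0.29 (SE 0.06, edgeR FDR = 0.0056) called in 11 of 15 alternatives. Tle3, a Groucho co-repressor of the LEF/TCF proteins and 1 of 22 nuclear co-factors tested, was lower in untreated IPO13-/- cells (-0.22, SE 0.04, edgeR FDR = 9e-05), and its response was 0.26 (SE 0.04, edgeR FDR = 2.4e-05) in IPO13+/+ and 0.54 (SE 0.04, edgeR FDR = 5.1e-11) in IPO13-/- cells.

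Other reported WNT targets did not share 1 direction. Of 30 tested, 8 were higher and 8 lower in untreated IPO13-/- cells, and 8 were higher and 7 lower after H2O2 in IPO13+/+ cells. Of all genes 18.7% and 19.4%, and 11.5% and 13.8%, were called in these comparisons. The number higher between the genotypes was 5 without untreated IPO13-/- library 1. Cd44, a cell adhesion receptor, was counted 13 and 18 times in untreated and 42 and 44 times in treated IPO13+/+ libraries, and 35 and 37 and then 85 and 96 times in IPO13-/- libraries, so that it was higher in IPO13-/- cells (1.20, SE 0.29, edgeR FDR = 0.0013) and, opposite to Lef1, higher after H2O2 (1.46, SE 0.28, edgeR FDR = 1.9e-04). Zcchc12, a zinc-finger gene, was higher in IPO13-/- cells (1.24, SE 0.10, edgeR FDR = 1.5e-10, from 2.13 and 2.57 to 5.76 and 5.36 CPM). Among the 8 lower in untreated IPO13-/- cells were Myc (-0.61, SE 0.05, edgeR FDR = 6.4e-11) and Ccnd1 (-0.51, SE 0.04, edgeR FDR = 4.5e-11). Myc and Ccnd1 were named after their values were seen. T, the mesoderm factor brachyury, was counted 24 and 10 times against 51 and 31 times (1.25, SE 0.32, edgeR FDR = 0.0025), a call lost without untreated IPO13-/- library 1 (0.11) or untreated IPO13+/+ library 2 (0.089).

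Of the 7 genes that TCF7L1 represses in mESCs, which are pluripotency genes, 4 were lower and 1 was higher in untreated IPO13-/- cells, where 19.4% and 18.7% of all genes were called. The higher one was Nanog (0.11, SE 0.04, edgeR FDR = 0.041), which was not called in 8 of the 16 alternatives. Tcl1, a kinase co-activator, was measured at 112 and 108 CPM in IPO13+/+ and 70.4 and 71.5 CPM in IPO13-/- cells (-0.64, SE 0.04, edgeR FDR = 2.5e-12). Esrrb and Nr0b1, nuclear receptors of the pluripotency network, gave -0.27 (SE 0.04, edgeR FDR = 8.8e-07) and -0.32 (SE 0.04, edgeR FDR = 1.2e-07), the transcription factor gene Tfcp2l1 -0.47 (SE 0.05, edgeR FDR = 4.6e-09), and Klf2 -0.07 (SE 0.04, edgeR FDR = 0.25). Tcf7l1 itself gave 0.02 (SE 0.05, edgeR FDR = 0.79) in the same comparison. Between the genotypes after H2O2, 2 of the 7 were lower (Tcl1 and Tfcp2l1) and 2 higher (Klf2 among them) in IPO13-/- cells. Of all genes 17.5% and 19.1% were. Esrrb then gave -0.06 (SE 0.04, edgeR FDR = 0.24) and Nr0b1 0.03 (SE 0.04, edgeR FDR = 0.56).

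**Figure D4:**
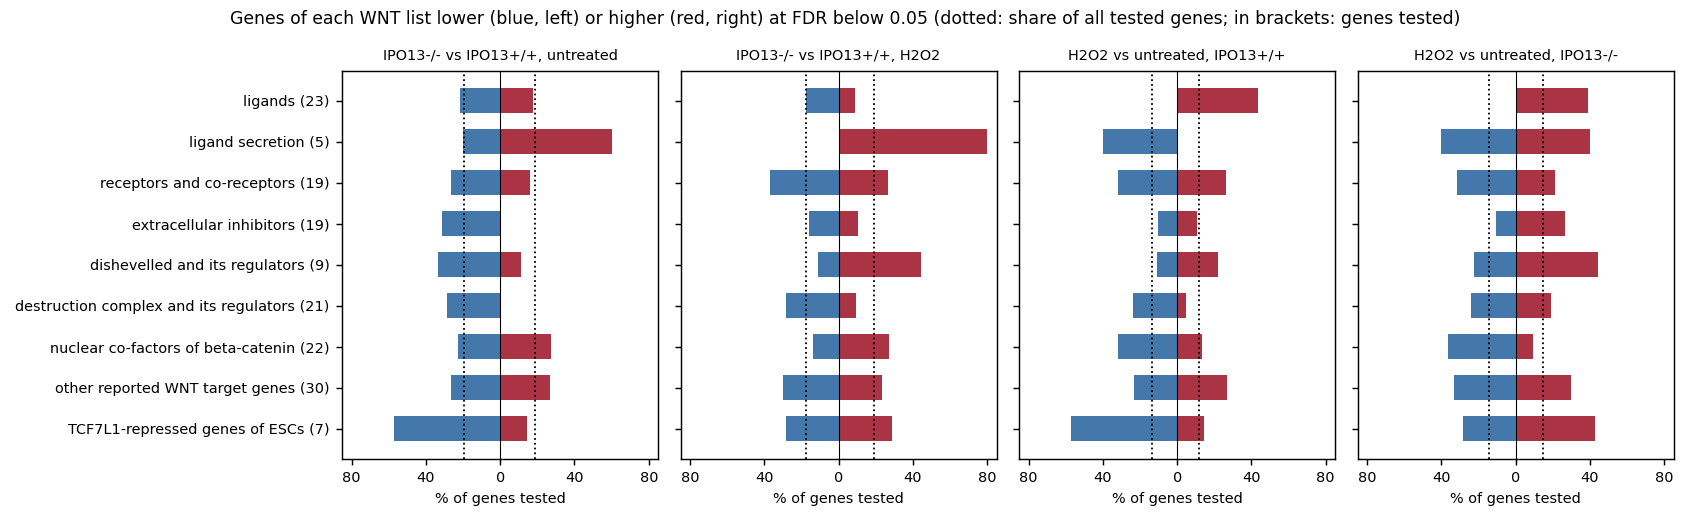
Share of the genes tested in each WNT gene list (percent, horizontal axes, list size in brackets) called lower (blue, left) or higher (red, right) at an edgeR FDR below 0.05 in the 4 comparisons, with dotted lines at the share of all tested genes. Ligands reach 43.5% higher and 0% lower after H2O2 in IPO13+/+ cells, and 39.1% higher in IPO13-/- cells. The list made up of the E3 ligases Znrf3 and Rnf43 is not drawn.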

How the data were processed

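The authors deposited, for each of 8 mRNA-seq libraries, raw read counts for 23420 gene symbols and the same counts as CPM, divided by the library total. The submitters' processing notes name bcl2fastq, STAR 2.3.1, HTSeq, limma and mm10, and the strand setting of the counting is not given in the sources used here. Groups and replicate numbers came from the labels, and the members and gene lists were chosen with earlier results of these data known.

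Counts were tested in R 4.3.3 with edgeR 4.0.16 (glmQLFit and glmQLFTest) in a single fit of the 8 libraries (a coefficient for each group, TMM factors) over the 19424 genes that had a count in at least 1 library. P-values were adjusted by Benjamini-Hochberg over these genes, and SE is taken from the log2 fold change and the F statistic (their size over its root). Contrasts between groups that differ in genotype and treatment were added after the data were seen, to order neighbouring levels. Every member is named, and from each list up to 4 genes (1 that the rule names is not reported here) past FDR 0.05 and 2-fold, or past FDR 0.05 in the interaction, with 10 counts in both libraries of a group, taken by the size of the untreated genotype difference. Genes most like Lef1 and Axin2 are the 3 with the highest Pearson correlation.

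The alternatives (15 for the interaction and 16 for each of the 4 comparisons) were DESeq2 1.42.0 without independent filtering, limma-voom (limma 3.58.1), library totals without factors, relative log expression factors, filterByExpr (15191 genes), no filter, the replicate block and leaving out each of the 8 libraries, and, for the 4 comparisons, fits of only the 4 libraries compared. The edgeR fit was tested on simulated counts. Positions and transcript lengths came from GENCODE M21 (GRCm38), which held 21751 of the symbols, and promoters from RefSeq. The protein sequences of the LEF/TCF family were not analysed here. Counting error alone sets the floor of 3 counts.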

Additional observations from a re-analysis of the deposited data

Results flagged for a closer look

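Of 155 pathway genes tested outside the 10 members, 13 showed an H2O2 response that differed between the genotypes by edgeR's interaction test at an FDR below 0.05, where 2.71% of all genes did. Of the 13 differences 11 were positive, meaning a more positive log2 response in IPO13-/- cells, and over all genes 390 of the 527 called were. A positive difference can also be a smaller fall. Tcl1 gave -0.22 (edgeR FDR = 1.9e-04) after H2O2 in IPO13+/+ and 0.01 (edgeR FDR = 0.89) in IPO13-/- cells. Wnt10a, Id2 and Dact2 had positive log2 differences of 0.98, 0.73 and 0.69. Id2, an inhibitor of differentiation and a reported WNT target, went from 60.2 and 60.4 to 107 and 109 CPM in IPO13+/+ and from 28.7 and 32.2 to 90.8 and 89.8 CPM in IPO13-/- cells. Shisa2 differed by 0.45, Nr0b1 by 0.35, Dvl2 by 0.29, Tle3 by 0.28, Klf2 by 0.27, Tcl1 by 0.24, Esrrb by 0.21 and Vps35, a retromer subunit, by 0.20.

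The other two were negative: Tnfrsf19, a WNT-induced receptor, at -0.89 and Jun, a subunit of AP-1, at -0.40. Tnfrsf19 went from 1.98 and 2.08 to 4.81 and 5.11 CPM in IPO13+/+ and from 3.99 and 4.58 to 5.36 and 5.84 CPM in IPO13-/- cells, and Jun from 26.9 and 24.9 to 45.7 and 45.3 and from 28.4 and 25.9 to 36.7 and 35.6 CPM. Id2, Jun and Tnfrsf19 lie outside the rule for named genes and were named after their values were seen.

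The calls of Dact2, Id2, Nr0b1 and Tnfrsf19 held in all 15 alternatives and that of Jun in 14, its exception being without untreated IPO13-/- library 1 (-0.35, edgeR FDR = 0.12). The others held in fewer: Dvl2 and Tle3 in 11, Shisa2 in 9, Klf2 in 8, Wnt10a in 6, Esrrb and Tcl1 in 5 and Vps35 in 4. Each of these 8 lost its call without untreated IPO13-/- library 1 (edgeR FDR between 0.16 and 0.40). Outlying libraries could not be looked for, since each group has 2.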

How the results depend on the processing

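No called member difference changed its direction in any alternative, while uncalled ones near 0 did, such as Tcf7l1 between the untreated genotypes (-0.03 to 0.10), and 718 of 790 member results kept their side of the threshold. DESeq2 moved the number of members called to 4 between the genotypes without H2O2, 4 with H2O2 and 3 after H2O2 in IPO13+/+ cells, and a fit of only the 4 libraries compared moved the latter to 2. Leaving out 1 library at a time gave 5 to 8 and 4 to 8 members between the genotypes without and with H2O2, 3 to 5 after H2O2 in IPO13+/+ and 3 to 7 in IPO13-/- cells, and 0 in the interaction. The number past 2-fold was then 0 to 1 between the untreated genotypes, 1 after H2O2, 0 to 1 for the IPO13+/+ response and 0 for the IPO13-/- response. With the longest transcript as the length, the ratio of Tcf7l1 to Lef1 per kb in untreated IPO13+/+ cells moved from 27.9 to 18.2. Genes called in the interaction went from 527 to 251 with DESeq2, 255 with limma-voom and 349 with filterByExpr, and from 73 to 1157 when 1 library was left out. Genes called after H2O2 went from 4908 to 3163 in IPO13+/+ cells with only the 4 libraries compared and to 2952 without treated library 1, and from 5704 to 3204 in IPO13-/- cells without untreated library 1. Of 1580 counts of called genes in the pathway lists under alternatives, 224 moved by over 1.5 times. The cause of these moves was not tested. Nkd1 and Sp5, with at most 90 reads in a library, are limited by depth.

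The replicate numbers paired the libraries at most in part. Same-numbered deviations of untreated IPO13+/+ libraries correlated at 0.364 with those of untreated and at 0.638 with those of treated IPO13-/- libraries. Between the IPO13-/- groups the correlation was 0.349. With treated IPO13+/+ libraries the correlations were -0.0889 to -0.00164. The spread between the libraries of a group, as a chi-square per gene, was 15.0 in untreated and 2.3 in treated IPO13+/+ cells. It was 4.6 and 6.6 in IPO13-/- cells, and the fit used a spread shared over all groups. With the replicate block 48 of 50 member results kept their side of the threshold, and Notum between the untreated genotypes (edgeR FDR = 0.028) and Tcf7l2 after H2O2 in IPO13-/- cells (edgeR FDR = 0.029) became calls. The interaction over all genes then gave 1291 calls.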
